A study of Mus musculus with 4 samples.

Results

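The Sox, Forkhead and T-box genes encode 3 families of DNA-binding transcription factors, and their levels were compared here between sorted cells of the molar pulp and of the incisor pulp of the mouse. Members were taken by symbol alone: Sox followed by a number, Fox followed by a letter and a number, or Tbx followed by a number. The rule found 75 of the 24216 rows of the authors' table, of which 19 were Sox, 43 Forkhead and 13 T-box genes. No measured value entered that choice. Foxm1, a Forkhead factor of dividing cells, sits in a row joined with another gene and did not match.

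The molar group was 2 libraries of FDG-positive cells sorted from molar pulp, and the incisor group was 2 libraries of FDG-positive cells sorted from incisor pulp. All 4 libraries came from XLacZ4 mice, a reporter strain in which beta-galactosidase marks the mural cells of vessels (pericytes and smooth muscle), and the labels give neither age nor sex nor a treatment. FDG is a substrate that fluoresces once beta-galactosidase has cleaved it, and cells with much lysosomal beta-galactosidase of their own can cleave it too. The protocol of the incisor libraries also names molars, so the tissue was read from the titles, sources and tissue labels, and the labels do not tell whether libraries of a tissue came from different animals.

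Sox factors bind and bend DNA through an HMG box, a domain first known from the male-determining gene Sry, and usually act with a partner protein. Forkhead factors bind through a winged-helix domain and serve in the growth of mesenchyme and vessels, in insulin signalling and as repressors. T-box factors bind through the domain that gives the family its name and pattern mesoderm, limb, heart and jaw. In teeth, Sox2 marks stem cells of the epithelium at the base of the growing mouse incisor, and Tbx18 is widely used as a marker of mural cells.

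The values of both tissues are FPKM, fragments scaled to transcript length and library size, with 1 value per tissue already combined by the authors. Because FPKM is given per length, levels of different genes can be set beside each other. No SD, no n and no count of reads stands behind a single value, the depth is unknown, and a value listed at 0 may still belong to an active gene. "Called" below means a q-value under 0.05 in the authors' deposited table, and a gene called toward a tissue had the higher value there. A positive log2 difference means higher in molar. Sorting, preparation and sequencing cannot be told apart from the tooth.

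None of the 12 mural genes was listed at 0 in either tissue. That alone says little, because 86.8% of all rows were above 0 in molar and 68.7% in incisor. The 12 genes summed to 453 FPKM in molar and 702 FPKM in incisor, and most of the incisor sum was Rgs5, with 127 FPKM in molar and 537 FPKM in incisor. In the authors' deposited table, 2 were called toward molar and 3 (Rgs5, Pdgfrb and Cd248) toward incisor. Those called toward molar were Ndufa4l2, with 145 FPKM in molar and 4.35 FPKM in incisor, and Kcnj8, with 108 FPKM in molar and 16.0 FPKM in incisor. Markers of other cells were present as well. The 10 macrophage genes summed to 8040 FPKM in molar and 5399 FPKM in incisor, with 3 called toward molar and 2 toward incisor in the authors' deposited table. The 16 dental epithelium genes summed to 2646 FPKM in molar and 23532 FPKM in incisor, with none at 0. The 14 endothelial genes summed to 315 FPKM in molar and 22.3 FPKM in incisor. In such mixtures, fewer cells of a type and less RNA per cell cannot be told apart.

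Of the 75 members, 36 reached 1 FPKM in at least 1 tissue, 19 of them in both, 12 in molar only and 5 in incisor only. Only 9 members, 12% of them, reached 5 FPKM, against 32.7% of all rows. Summed over the family, the Forkhead genes gave 113 FPKM in molar and 132 FPKM in incisor, the Sox genes 43.7 FPKM in molar and 69.7 FPKM in incisor, and the T-box genes 12.3 FPKM in molar and 6.79 FPKM in incisor. The sums rest on few genes. Foxn3 alone held 35.4% of the Forkhead sum in molar and 45.0% in incisor, and Sox9 held 24.3% of the Sox sum in molar and 44.8% in incisor.

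The authors tested 60 members and left 15 untested. In the authors' deposited table, 3 members were called toward molar (Foxp2, Sox5 and Tbx18) and 1 toward incisor (Sox9), while 56 tested members were not called. Over all tested rows of the authors' deposited table, 11.9% were called toward molar and 4.28% toward incisor. The members' shares lay below both of these background shares. Among rows at 1 FPKM or more in either tissue, where 2 members were called toward molar and 1 toward incisor, the background in the authors' deposited table was 16.1% toward molar and 5.66% toward incisor.

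Without regard to calls, 20 of the 36 members at 1 FPKM or more had their larger value in molar and 16 in incisor. Their median log2((molar FPKM + 1) / (incisor FPKM + 1)) was 0.10, beside 0.14 over all rows past the same floor. The pseudocount of 1 makes this scale understate differences of low genes. The split changed with level. Among the 9 members at 5 FPKM or more, 7 had the larger value in incisor, with a median of -0.56, beside 0.19 over all rows at that level. Among the 27 members between 1 and 5 FPKM, 18 had the larger value in molar, with a median of 0.35, beside 0.10 over all such rows. These counts depend on scaling, because the molar values sum to more. With equal FPKM totals, 14 of the 36 members had the larger value in molar and 22 in incisor, while 8 of the 9 abundant members and 14 of the 27 others had it in incisor. The share of all rows at 1 FPKM or more with the larger value in molar was 54.5% as deposited and 39.7% with equal totals. None of these splits was tested.

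**Figure D1:**
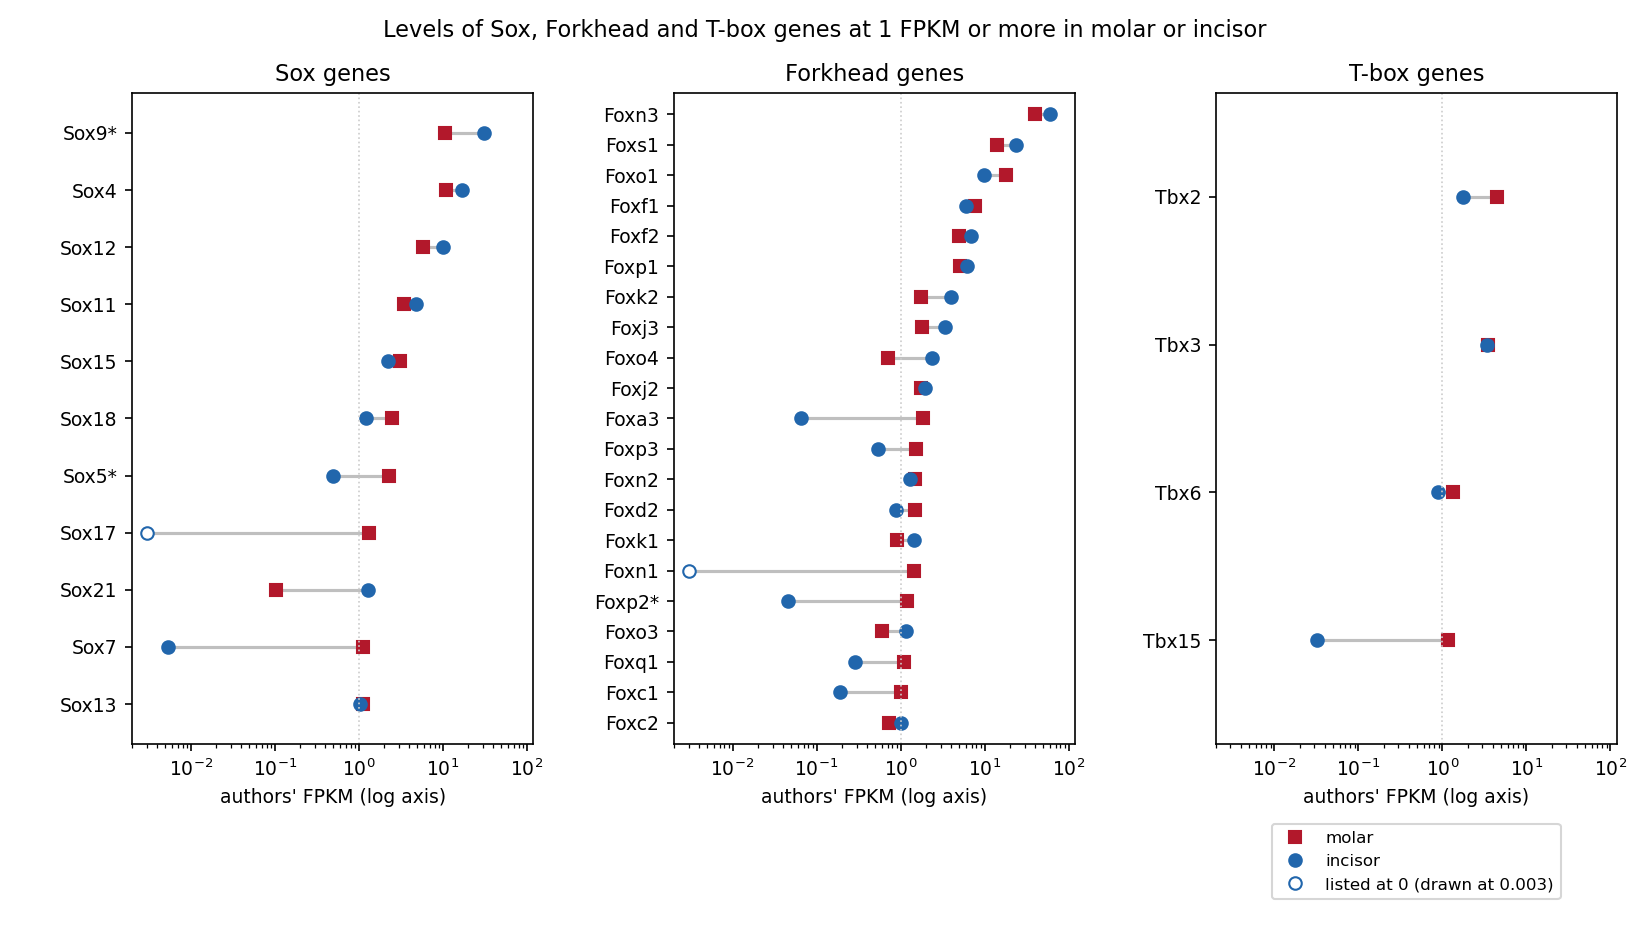
Authors' FPKM (log axis) of the 36 members at 1 FPKM or more in molar or incisor, by family and in order of the higher value, with red squares for molar, blue circles for incisor and open circles for values listed at 0; a star marks q under 0.05 in the authors' deposited table. The high members at the top, from Foxn3 to Sox12, mostly have the blue circle on the right, and the long bars lie among genes near 1 FPKM.

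Sox9, a SoxE factor that drives cartilage formation and is also made in neural crest cells and in epithelial progenitors, was the most abundant Sox gene in incisor. Its row lies at chr11:112782210-112787757 on mm10. Sox9 had 10.6 FPKM in molar and 31.2 FPKM in incisor. It was the only member called toward incisor, with a log2 difference of -1.56 and q = 0.0157 in the authors' deposited table. The other SoxE genes were low in both tissues. Sox8 had 0.316 FPKM in molar and 0.0336 FPKM in incisor, and Sox10, a factor of neural crest and Schwann cells, had 0.112 FPKM in molar and 0.0105 FPKM in incisor and was not tested by the authors.

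Sox5, a SoxD factor without an activation domain of its own that works with Sox6 and Sox9 on cartilage genes, had 2.27 FPKM in molar and 0.4996 FPKM in incisor. It was called toward molar, opposite in direction to Sox9, with a log2 difference of 2.18 and q = 0.00326 in the authors' deposited table. Its row, chr6:143828425-144209568 on mm10, covers only part of the Sox5 gene in the GENCODE M21 annotation. Exons of the Sox5 transcript in that annotation overlap the antisense gene Sox5os1, and whether this overlap lies within the row was not tested. The SoxD partners of Sox5 were not called. Sox6 had 0.438 FPKM in molar and 0.293 FPKM in incisor, and Sox13 had 1.11 FPKM in molar and 1.03 FPKM in incisor.

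The 10 cartilage genes known as Sox9 targets did not move in 1 direction. In the authors' deposited table, 4 of the 10 were called toward molar, 1 was called toward incisor and 5 were not called. Those higher in molar were Col2a1, the main cartilage collagen, with 4.11 FPKM in molar and 0.525 FPKM in incisor, Col9a1, Col9a2, and Cnmd, which encodes chondromodulin and is listed under its older symbol, with 109 FPKM in molar and 34.7 FPKM in incisor. The gene higher in incisor was Hapln1, a link protein of the hyaluronan matrix, with 6.34 FPKM in molar and 21.6 FPKM in incisor. So 4 of the targets moved against Sox9 and with Sox5. The wider cartilage marker list, which contains these targets, summed to 171 FPKM in molar and 73.6 FPKM in incisor, with Matn1 listed at 0 in incisor and Snorc at 0 in both.

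Dental epithelium moved in the direction of Sox9. In the authors' deposited table, 9 of the 16 epithelial markers were called toward incisor and none toward molar, Krt14 among them with 32.8 FPKM in molar and 545 FPKM in incisor. Neither the part of epithelial cells nor that of cartilage cells in the Sox9 and Sox5 differences was tested.

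**Figure D2:**
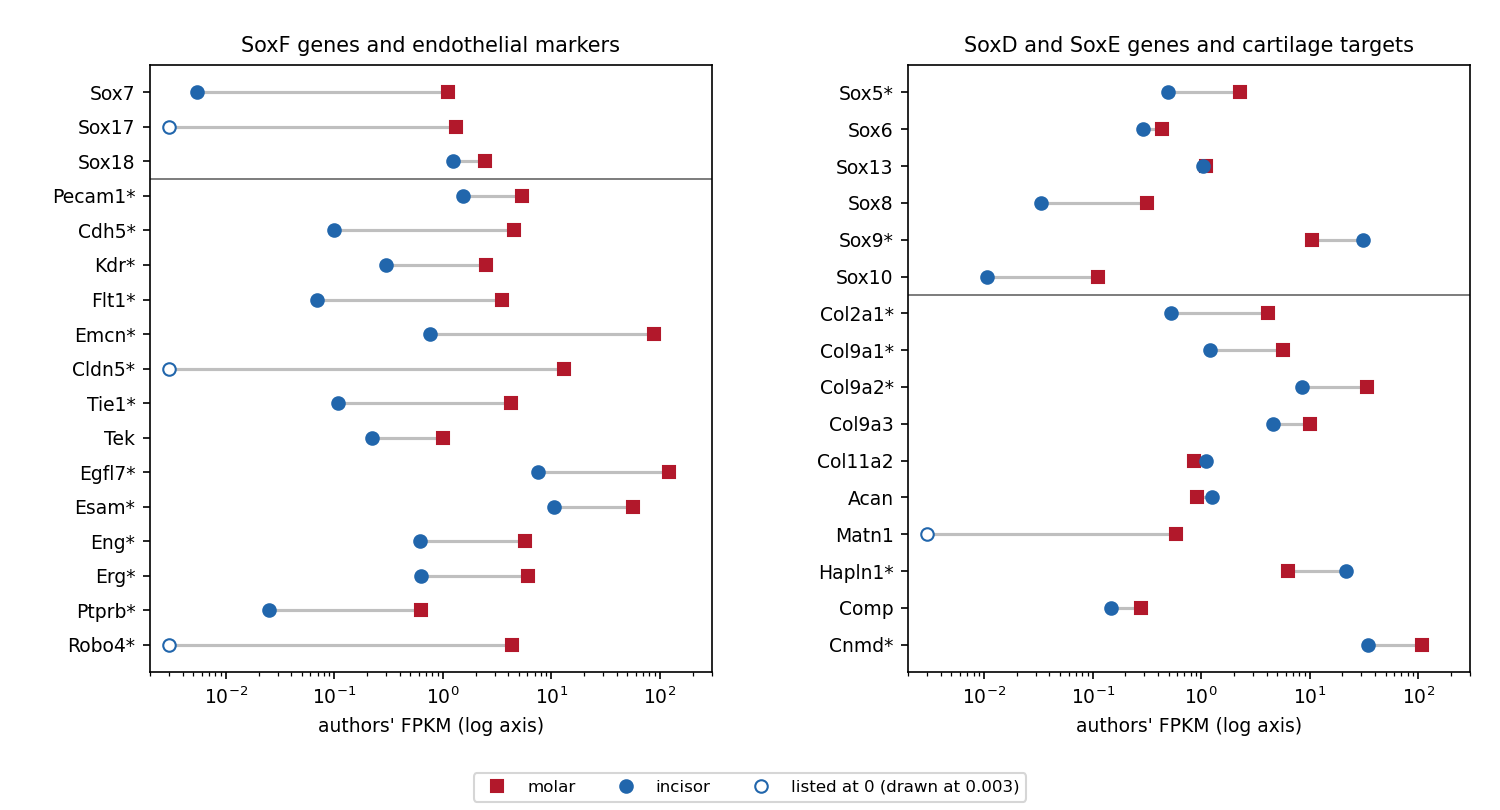
Authors' FPKM (log axis) in molar (red squares) and incisor (blue circles; open where listed at 0) of SoxF genes over endothelial markers (left panel) and of SoxD and SoxE genes over cartilage targets (right panel); a star marks q under 0.05 in the authors' deposited table. On the left every red square lies to the right of its blue circle, while on the right Sox9 and Hapln1 are the called genes whose blue circle lies to the right.

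The SoxC genes Sox4, Sox11 and Sox12, which share targets in neural and mesenchymal progenitors and often overlap in function, each passed 3 FPKM in both tissues. Sox4 had 11.01 FPKM in molar and 16.8 FPKM in incisor, Sox12 had 5.78 FPKM in molar and 10.1 FPKM in incisor, and Sox11 had 3.49 FPKM in molar and 4.87 FPKM in incisor. All 3 had the larger value in incisor and none was called, with log2 differences of -0.61 for Sox4, -0.80 for Sox12 and -0.48 for Sox11 and q = 0.267, 0.252 and 0.350 in the authors' deposited table. Together they gave 20.3 FPKM in molar and 31.7 FPKM in incisor. The Sox4 transcript can also catch reads of other genes, since 54.7% of its 32-base words lie in them over its whole GENCODE M21 length. The authors' row leaves out part of that length, and the share within the row was not measured. The gene sharing the most is Gm26735, on the opposite strand, and whether the counting used strand is not given.

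The RefSeq promoters of Sox4 and Sox12 are shown because these are the SoxC genes at 5 FPKM or more and because the Sox12 promoter holds a Forkhead motif. Each is the 250 bases before the annotated start on GRCm38.p6, minus strand, at chr13:28953700-28953949 for Sox4 and chr2:152398047-152398296 for Sox12, and capitals mark motifs: the CCAAT box, printed as ATTGG where it lies on the other strand, in both genes, and the Forkhead motif TGTTTAC in Sox12.

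Sox4: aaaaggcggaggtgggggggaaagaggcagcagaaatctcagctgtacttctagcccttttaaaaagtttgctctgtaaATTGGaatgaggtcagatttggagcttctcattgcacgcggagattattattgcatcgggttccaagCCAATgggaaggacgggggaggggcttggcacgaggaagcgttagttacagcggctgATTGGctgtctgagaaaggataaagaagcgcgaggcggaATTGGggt
Sox12: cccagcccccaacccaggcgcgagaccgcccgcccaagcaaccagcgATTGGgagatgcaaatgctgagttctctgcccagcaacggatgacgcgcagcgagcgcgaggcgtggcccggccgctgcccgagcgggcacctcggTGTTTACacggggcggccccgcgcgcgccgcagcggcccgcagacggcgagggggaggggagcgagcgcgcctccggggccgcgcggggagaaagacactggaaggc

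The Sox4 stretch holds 4 CCAAT boxes, and the Sox12 stretch holds 1 CCAAT box and 1 TGTTTAC. A motif match is a description of the letters and shows no binding.

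The SoxF genes Sox7, Sox17 and Sox18, factors of endothelial cells, had all 3 larger values in molar. Sox18 had 2.47 FPKM in molar and 1.24 FPKM in incisor, Sox17 had 1.31 FPKM in molar but was listed at 0 in incisor, and Sox7 had 1.12 FPKM in molar and 0.00542 FPKM in incisor. None was called, with q = 0.364 for Sox18, 0.0822 for Sox17 and 0.363 for Sox7 in the authors' deposited table. Endothelial markers moved with them: 13 of 14 were called toward molar in the authors' deposited table, and Cldn5 and Robo4 were listed at 0 in incisor. Cdh5, the cadherin of endothelial junctions, had 4.53 FPKM in molar and 0.0994 FPKM in incisor, and Emcn, encoding endomucin of capillaries and veins, had 87.6 FPKM in molar and 0.756 FPKM in incisor. The part of endothelial cells in the SoxF values was not tested.

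Of the 10 SoxF vascular targets and partners, 4 were called toward molar (Cldn5, Dll4, Cdh5 and Lyve1), 1 was called toward incisor and 5 were not called in the authors' deposited table. The gene higher in incisor was Vcam1, an adhesion molecule that mesenchymal cells make too, with 36.4 FPKM in molar and 126 FPKM in incisor. Cldn5 and Cdh5 are also on the endothelial list. In Sox17, 24.1% of the 32-base words are shared with other genes, the most with the antisense gene Gm37587.

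Among the remaining Sox genes, Sox15, known from myogenic precursors, had 3.14 FPKM in molar and 2.25 FPKM in incisor and was not called (q = 0.824 in the authors' deposited table). Its row overlaps Mpdu1, and with equal FPKM totals its larger value lay in incisor. Sox21, which is active in hair and dental epithelium, had 0.105 FPKM in molar and 1.28 FPKM in incisor, with a log2 difference of -3.61 that was not called (q = 0.385 in the authors' deposited table). The Sox21 row reaches past the gene and overlaps LOC105245869 and Mir6241. Of the 32-base words of Sox21, 18.5% lie in other genes, the most in the antisense gene Gm4675, so the Sox21 value is uncertain. Sox2 had 0.135 FPKM in molar and 0.0914 FPKM in incisor and was not tested by the authors, its row overlaps that of Sox2ot, and with equal FPKM totals its larger value lay in incisor. Of 9 tested Sox partners and cofactors, 2 were called toward molar and none toward incisor in the authors' deposited table. They were Ctbp1, a corepressor, with 16.8 FPKM in molar and 3.15 FPKM in incisor, and Hdac1, a histone deacetylase, with 74.6 FPKM in molar and 29.4 FPKM in incisor.

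Among Forkhead genes of mesenchyme and vessel wall, Foxs1, known from perivascular cells, was the most abundant with 14 FPKM in molar and 23.5 FPKM in incisor. Foxf1, which acts in mesenchyme beside epithelium, had 7.65 FPKM in molar and 6.04 FPKM in incisor. Its paralog Foxf2, known from brain pericytes, had 4.95 FPKM in molar and 6.90 FPKM in incisor. None of the 3 was called, with log2 differences of -0.75 for Foxs1, 0.34 for Foxf1 and -0.48 for Foxf2 in the authors' deposited table. The direction of Foxf1 depends on scaling, since with equal FPKM totals its log2 difference was -0.25. The summed FoxF level was 12.6 FPKM in molar and 12.9 FPKM in incisor.

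Subfamily partners outside the rule for named genes were added after their values had been seen. Foxc1, a factor of neural crest mesenchyme and mural cells, had 1.02 FPKM in molar and 0.188 FPKM in incisor, and Foxc2, known from lymphatic valves, had 0.732 FPKM in molar and 1.01 FPKM in incisor. Foxd1, a marker of pericyte progenitors in the kidney, had 0.121 FPKM in molar and 0.417 FPKM in incisor, and Foxd2 had 1.49 FPKM in molar and 0.888 FPKM in incisor. Foxl1, a factor of gut mesenchyme, had 0.547 FPKM in molar and 0.404 FPKM in incisor. No gene of the FoxC, FoxD, FoxF, FoxL or FoxS groups was called in the authors' deposited table.

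Mural and smooth muscle markers themselves were split between the tissues. Of 8 contractile smooth muscle genes, 2 were called toward molar and 2 toward incisor in the authors' deposited table, and they summed to 524 FPKM in molar and 1425 FPKM in incisor, with none at 0. Of 12 genes of pulp and jaw mesenchyme, 4 were called toward molar and 4 toward incisor in the authors' deposited table, with sums of 4090 FPKM in molar and 2376 FPKM in incisor and Barx1 listed at 0 in incisor. Of 12 odontoblast and osteoblast genes, 1 was called toward molar and 2 toward incisor in the authors' deposited table, with sums of 489 FPKM in molar and 768 FPKM in incisor and Mepe listed at 0 in incisor. The part of these cells in the Forkhead values was not tested.

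Foxo1, the effector that insulin and growth factor signals keep out of the nucleus, had 17.9 FPKM in molar and 9.88 FPKM in incisor. It is the member with the largest level in molar after Foxn3, and its log2 difference of 0.86 was not called (q = 0.164 in the authors' deposited table). Its paralogs had the larger value in incisor: Foxo3 with 0.599 FPKM in molar and 1.17 FPKM in incisor, and Foxo4 with 0.707 FPKM in molar and 2.39 FPKM in incisor. Foxo1 held 15.8% of the Forkhead sum in molar and 7.48% in incisor.

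The Foxo1 promoter is shown because this gene has the larger value in molar while most abundant members do not. It is the RefSeq entry of 250 bases on GRCm38.p6 at chr3:52268087-52268336, plus strand, with CCAAT boxes in capitals.

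Foxo1: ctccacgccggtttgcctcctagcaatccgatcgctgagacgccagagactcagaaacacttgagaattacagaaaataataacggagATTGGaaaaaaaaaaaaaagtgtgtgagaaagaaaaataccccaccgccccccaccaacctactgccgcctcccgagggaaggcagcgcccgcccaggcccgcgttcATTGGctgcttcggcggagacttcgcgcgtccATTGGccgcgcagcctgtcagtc

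All 3 CCAAT boxes appear as ATTGG, the reverse complement. Of 15 Foxo stress and growth-arrest targets, 4 were called toward molar, 1 toward incisor and 10 were not called in the authors' deposited table. Those higher in molar were Irs2, an insulin signalling adaptor, Gadd45a, a growth-arrest gene, Sod2, the mitochondrial superoxide dismutase with 34.8 FPKM in molar and 8.67 FPKM in incisor, and Klf2, a flow-responsive factor of endothelium with 62.4 FPKM in molar and 11.8 FPKM in incisor. The gene higher in incisor was Cat, encoding catalase, with 13.4 FPKM in molar and 95.4 FPKM in incisor. Of the 32-base words of Foxo1, 7.91% lie in other genes, the most in the antisense gene Gm20402.

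Foxn3, a repressor first known as a checkpoint suppressor, was the most abundant member of all, with 40.1 FPKM in molar and 59.4 FPKM in incisor. Its log2 difference of -0.57 was not called (q = 0.252 in the authors' deposited table). Foxn2 had 1.51 FPKM in molar and 1.28 FPKM in incisor. Foxn1, the factor of thymic epithelium and hair whose loss gives the nude mouse, had 1.44 FPKM in molar but was listed at 0 in incisor, and was not called (q = 0.252 in the authors' deposited table). A level at or above that of Foxn1 was found in 4.17% of olfactory, vomeronasal and taste receptor rows in molar.

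Foxk2, which with Foxk1 controls glycolysis and autophagy genes, had 1.78 FPKM in molar and 4.003 FPKM in incisor, and Foxk1 had 0.914 FPKM in molar and 1.45 FPKM in incisor. Foxj3 had 1.80 FPKM in molar and 3.43 FPKM in incisor, and Foxj2 had 1.76 FPKM in molar and 1.96 FPKM in incisor. All 4 had the larger value in incisor, and none was called; Foxk2 had a log2 difference of -1.17 and q = 0.214 in the authors' deposited table. Foxj1, the master factor of motile cilia, had 0.347 FPKM in molar and 0.209 FPKM in incisor. Of 6 tested genes of multiciliated cells, 1 (Rsph1) was called toward molar and none toward incisor in the authors' deposited table. The list summed to 9.68 FPKM in molar and 3.66 FPKM in incisor, with none of its 9 rows at 0. Rsph1 alone gave 7.23 FPKM of this in molar and 1.10 FPKM in incisor.

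The FoxP genes are repressors that pair with each other. Foxp1 had 5.17 FPKM in molar and 6.23 FPKM in incisor and was not called (log2 -0.27 and q = 0.478 in the authors' deposited table). Foxp2, known for its part in vocal learning circuits and lung, had 1.18 FPKM in molar and 0.0459 FPKM in incisor. It was called toward molar, with a log2 difference of 4.69 and q = 0.000664 in the authors' deposited table, which Tbx18 shared as the smallest q of any member. The Foxp2 row spans chr6:14901349-15441977 on mm10. Foxp4 had 0.693 FPKM in molar and 0.330 FPKM in incisor.

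Foxp3, the factor of regulatory T cells, had 1.51 FPKM in molar and 0.538 FPKM in incisor and was not called (log2 1.49 and q = 0.425 in the authors' deposited table). Its row overlaps Ccdc22 and Ppp1r3f, and 16.2% of its 32-base words lie in other genes, the most in Ccdc22. Tbx21, the T-box factor of type 1 helper and natural killer cells, had 0.180 FPKM in molar and 0.0472 FPKM in incisor. Of 11 tested lymphoid genes, 2 (Cd8b1 and Il7r) were called toward molar and 2 (Cd4 and Nkg7) toward incisor in the authors' deposited table. The lymphoid list summed to 16.8 FPKM in molar and 46.2 FPKM in incisor, with Cd4, which some macrophages make too, its largest value at 7.45 FPKM in molar and 44.7 FPKM in incisor. Other lymphoid genes spanned a wide range in molar. Cd8b1 had 4.11 FPKM in molar and was at 0 in incisor, Ms4a1 had 2.00 FPKM in molar and 0.410 FPKM in incisor, Cd79a had 1.14 FPKM in molar and 0.671 FPKM in incisor, and Il7r had 0.876 FPKM in molar and 0.0654 FPKM in incisor. Cd3e had 0.325 FPKM in molar but was listed at 0 in incisor, as were Cd8a and Ncr1, while Nkg7 was listed at 0 in molar and Gzma in both. The part of lymphoid cells in the Foxp3 and Tbx21 values was not tested.

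Foxa3, a liver and gut endoderm factor, had 1.84 FPKM in molar and 0.0650 FPKM in incisor. It carries the authors' own mark of significance, which reached up to q = 0.0600, but with q = 0.0587 in the authors' deposited table it was not called here. By that mark 4 members were higher in molar, against a background of 12.7% of tested rows in the authors' deposited table. Foxa2 had 0.147 FPKM and Foxa1 0.0878 FPKM in molar, and both were listed at 0 in incisor. Foxq1 had 1.10 FPKM in molar and 0.284 FPKM in incisor. However, over its whole GENCODE M21 transcript 65.9% of the 32-base words lie in other genes, the most in the antisense gene A530084C06Rik. The authors' row leaves out part of that transcript, so the share within the row was not measured and the Foxq1 value is uncertain.

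Foxm1 shares its row with 4933413G19Rik, and that joined row had 1.62 FPKM in molar and 5.67 FPKM in incisor, with a log2 difference of -1.81 that was not called (q = 0.0761 in the authors' deposited table). Of 10 mitotic targets of Foxm1, 3 were called toward molar (Ccnb2, Plk1 and Cenpa) and 1 toward incisor (Cenpf) in the authors' deposited table. The wider proliferation list had 3 of 12 called toward molar and 4 toward incisor in the authors' deposited table, with sums of 406 FPKM in molar and 470 FPKM in incisor.

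The T-box genes at 1 FPKM or more were Tbx2, Tbx3, Tbx6 and Tbx15, and all 4 had the larger value in molar. Tbx2, a repressor in limb, heart and jaw, had 4.45 FPKM in molar and 1.77 FPKM in incisor, with a log2 difference of 1.33 that was not called (q = 0.185 in the authors' deposited table). Its close relative Tbx3 was nearly equal, with 3.54 FPKM in molar and 3.40 FPKM in incisor. The direction of Tbx3 and Tbx6 depends on scaling: with the FPKM totals of both tissues set equal, their larger values lay in incisor. Tbx6, a factor of paraxial mesoderm, had 1.32 FPKM in molar and 0.888 FPKM in incisor. Tbx15, a factor of limb and skin mesenchyme, had 1.18 FPKM in molar and 0.0320 FPKM in incisor, and its log2 difference of 5.20 was not called (q = 0.112 in the authors' deposited table).

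Tbx18, which marks mural cells in many organs, was low in these cells, which had been sorted for a mural reporter. It had 0.410 FPKM in molar but was listed at 0 in incisor, and it was called toward molar with q = 0.000664 in the authors' deposited table. Its row lies at chr9:87702800-87731260 on mm10, and 19.6% of its 32-base words lie in other genes, the most in the antisense gene D030062O11Rik. The 250 bases before its start in RefSeq, GRCm38.p6 chr9:87731261-87731510, minus strand, are shown because Tbx18 is the called member that is listed at 0 in 1 tissue; capitals mark its single CCAAT box, which reads as ATTGG.

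Tbx18: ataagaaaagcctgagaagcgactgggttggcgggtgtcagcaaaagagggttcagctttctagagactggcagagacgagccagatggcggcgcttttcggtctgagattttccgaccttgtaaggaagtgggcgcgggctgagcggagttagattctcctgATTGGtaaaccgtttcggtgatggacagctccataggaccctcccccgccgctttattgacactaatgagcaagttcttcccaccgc

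The other T-box genes stayed under 1 FPKM in both tissues. Tbx4 had 0.0938 FPKM in molar and 0.440 FPKM in incisor, Tbx20 had 0.543 FPKM in molar and Tbx5 had 0.214 FPKM in molar, and both of these heart factors were listed at 0 in incisor. Tbx22, the cleft palate gene, had 0.209 FPKM in molar and 0.116 FPKM in incisor. Among T-box, Sox and Forkhead genes that the name rule leaves out, Mga had 1.84 FPKM in molar and 4.11 FPKM in incisor, Sry was listed at 0 in both tissues, and T and Eomes were listed at 0 in incisor. Of that list 2 genes were tested and none was called in either direction in the authors' deposited table.

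**Figure D3:**
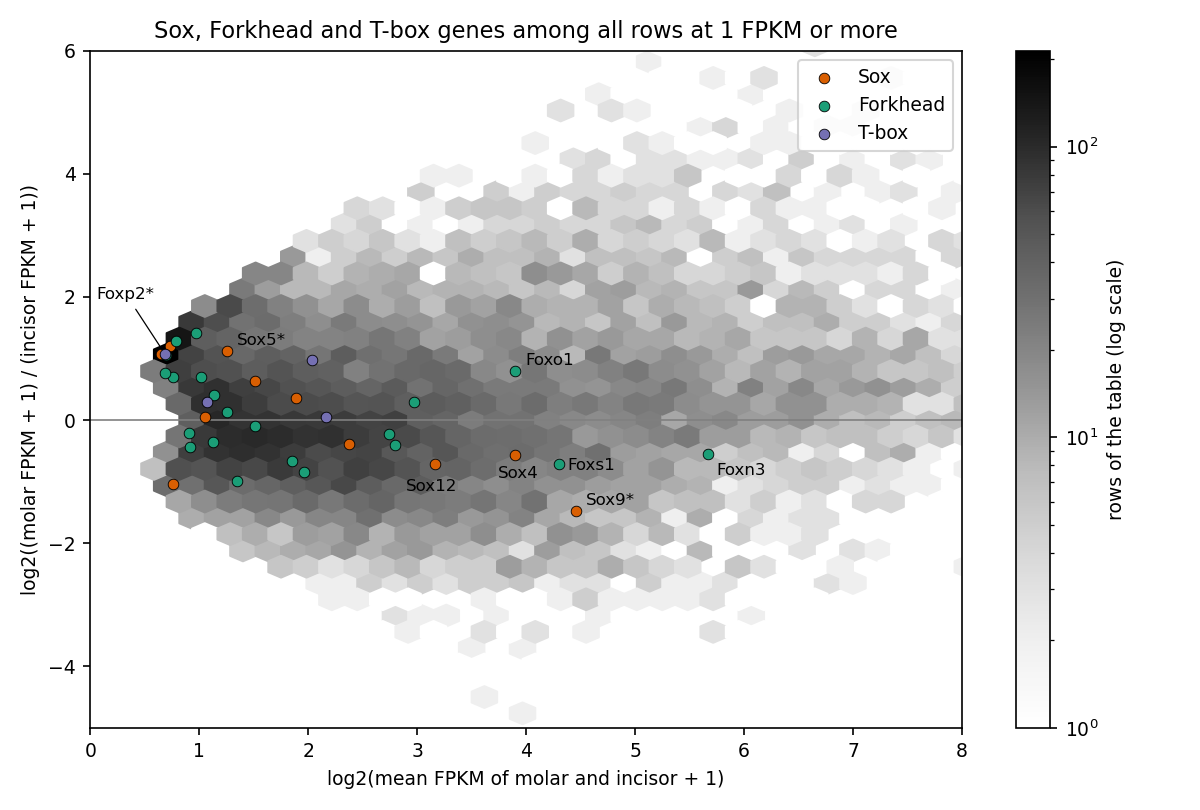
Each of the 36 members at 1 FPKM or more among all rows past that floor (grey hexagons, shaded by the number of rows on a log scale), with mean level as log2(mean FPKM + 1) on the horizontal axis and log2((molar FPKM + 1) / (incisor FPKM + 1)) on the vertical axis, above 0 for higher in molar; a star marks q under 0.05 in the authors' deposited table. Foxo1 is the labelled abundant member above 0, Foxn3, Foxs1, Sox4, Sox12 and Sox9 lie below it, and the called Sox5 and Foxp2 lie at low mean level, where the point of Tbx15 covers that of Foxp2.

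Below 1 FPKM in both tissues lay 39 members, of which 35 were above 0 in molar and 14 in incisor. Their median was 0.135 FPKM in molar and 0 in incisor, and the highest values were 0.693 FPKM in molar (Foxp4) and 0.440 FPKM in incisor (Tbx4). Over all 75 members, 25 were listed at 0 in incisor only, 2 in molar only (Tbx1 and Foxi3, both factors of dental epithelium) and 2 in both (Foxe1 and Foxe3). Members listed at 0 in incisor only made up 33.3%, against 19.2% of all rows. The same imbalance ran through the table, since 4660 of its 4934 rows at 0 in a single tissue were at 0 in incisor.

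Olfactory, vomeronasal and taste receptor genes, which pulp cells are not known to use, give a level to read these low values against. Their 1488 rows had a median of 0.108 FPKM and a 99th percentile of 3.78 FPKM in molar, and a median of 0 and a 99th percentile of 0.135 FPKM in incisor. In molar 82.1% of these rows were above 0, and in incisor 3.43%. In the authors' deposited table, 21 of 725 tested chemoreceptor rows were called toward molar and 2 toward incisor.

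The molar values of the members called toward molar lay inside that range. A level at or above that of Sox5 was found in 2.42% of chemoreceptor rows in molar, at or above that of Foxp2 in 5.11%, and at or above that of Tbx18 in 13.8%. Sox9 was the only called member whose higher value exceeded the 99th percentile of chemoreceptor rows in its tissue. What gave the chemoreceptor rows their molar values, and its part in the low members, was not tested.

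**Figure D4:**
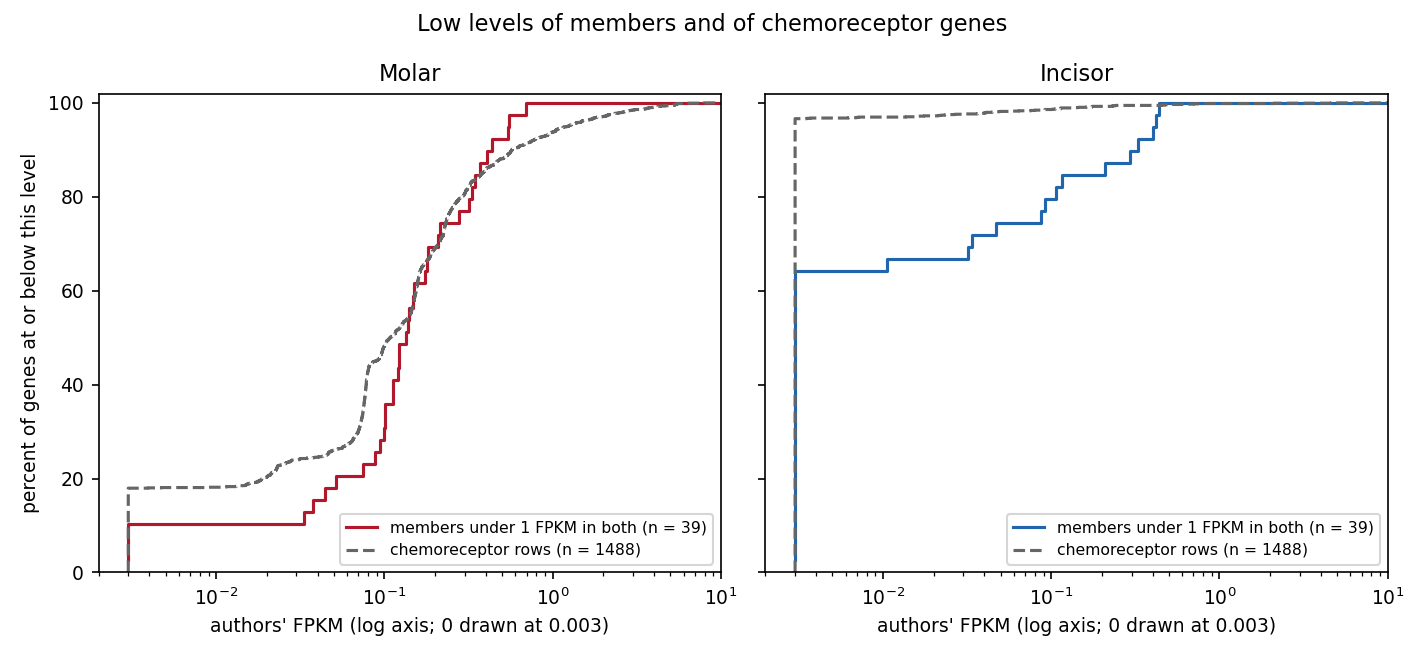
Cumulative percent of genes at or below each authors' FPKM level (log axis, 0 drawn at the left edge) for the 39 members under 1 FPKM (solid line) and the 1488 chemoreceptor rows (dashed grey line), with molar in the left panel and incisor in the right panel. In molar the 2 lines run close together, while in incisor the chemoreceptor line starts near the top and the members' line starts lower.

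A listed 0 in incisor seldom came with a call. Of the 25 members listed at 0 in incisor only, 16 were tested and 1, Tbx18, was called. In the authors' deposited table, a share of 8.1% of all tested rows of that kind was called, and the median p-value of these rows was 0.110, beside a median of 0.0965 for the 16 members. Markers of known lineage were among the lowest members. Foxd3, a neural crest factor, had 0.0378 FPKM in molar but was listed at 0 in incisor. Tbx1 was listed at 0 in molar with 0.107 FPKM in incisor, and Foxi3 was listed at 0 in molar with 0.0865 FPKM in incisor. None of these 3 was tested by the authors.

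Of 12 Schwann cell and glia genes, 3 (Cdh19, Fabp7 and Cnp) were called toward molar and none toward incisor in the authors' deposited table, with sums of 105 FPKM in molar and 81.5 FPKM in incisor. Pou3f1 was listed at 0 in incisor. The glial and neural crest members Sox10 and Foxd3 lay under the 99th percentile of chemoreceptor rows in both tissues.

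The members also share features of gene structure. All 75 are protein coding in GENCODE M21, and 22 of them (29.3%) have a single exon, against 11.2% of the other 21849 protein-coding genes. At least 1 FPKM was reached by 9 of the 22 single-exon members and by 27 of the 53 members with several exons. Transcripts ran between 861 and 9091 bases, with a median of 3016. Exons of 17 members overlap an antisense gene, and 13 members have over 5% of their 32-base words in other genes.

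Several members lie side by side, and 7 pairs of 12 members lie within 200 kb of each other. On chromosome 8, Foxf1, Foxc2 and Foxl1 follow each other with gaps of 28.0 kb and 8.79 kb, and only Foxf1 exceeded 5 FPKM. On chromosome 13, Foxq1, Foxf2 and Foxc1 follow with gaps of 64.8 kb and 175 kb, where Foxf2 had its larger value in incisor while Foxq1 and Foxc1 had theirs in molar. On chromosome 11, Tbx2 lies 48.1 kb from Tbx4, and the larger value was in molar for Tbx2 and in incisor for Tbx4. On chromosome 5, Tbx3 lies 150 kb from Tbx5. On chromosome 4, Foxd2 lies 16.2 kb from Foxe3, which was listed at 0 in both tissues. In none of the 7 pairs did both genes reach 5 FPKM.

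RefSeq promoter entries were found for 50 members, 63 entries in all. Their median ratio of observed to expected CpG was 0.676, beside 0.373 over 32851 promoters, and their median GC content was 60% beside 52.4%. Members at 1 FPKM or more had a median CpG ratio of 0.704 over 24 entries, and those below had 0.603 over 39 entries. The motifs searched on both strands were AACAAT for Sox, TGTTTAC for Forkhead, GGTGTGA for T-box, the CCAAT box and the TATA box (TATAAA). The Sox motif lay in 3 of the members' 63 entries (4.76%) and in 9.42% of all. The Forkhead motif lay in 2 of the 63 (3.17%) and in 3.17% of all, and the T-box motif in 1 of the 63 (1.59%) and in 3.33% of all. These counts are small, and no difference was tested. The CCAAT box lay in 42.9% of the members' entries and 33.8% of all, and the TATA box in 9.52% of the members' entries and 12.4% of all.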

How the data were processed

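RNA was sequenced from 4 libraries of sorted dental pulp cells, and the authors deposited 1 table in which both libraries of a tissue are combined. Its columns, per the file headers, are the authors' FPKM of either tissue, their log2 fold change (molar over incisor), a test statistic (a score), the p-value and the q-value. Trim Galore, HISAT2, edgeR and mm10 are named in the submitters' processing notes without a role; the tool that made the table is not given in the sources used here. Every column of values was tied to a tissue by the library descriptions, and 0 columns stayed unmapped. Start positions were moved by 1 base to be 1-based on mm10.

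Members were taken by symbol with Python 3.11.15, pandas 2.3.3, numpy 2.4.6 and scipy 1.17.1. With 1 value per tissue no test of its own was possible, so the authors' q under 0.05 stands for a call, a floor of 1 FPKM was used and a pseudocount of 1 entered log2 medians. The name rule for members used symbols only, but that rule and the 18 lists (181 genes) were set with earlier results of these data known. Named members were all those with q under 0.05 or at 5 FPKM or more, the next by level until a family had 8, and a set of lineage markers, 31 in all. Exons and shared 32-base words came from GENCODE M21 and promoters from RefSeq. Shared words were counted over whole GENCODE transcripts, which the authors' rows do not always cover. The recomputation of q and the log2 median were tested on simulated data, while the counts of members and of shared words were not.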

Additional observations from a re-analysis of the deposited data

How the results depend on the processing

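No paired analysis was possible because the table holds 1 combined value per tissue, and for the same reason neither leaving out a library nor a count model with edgeR or DESeq2 was run. The 3 members called toward molar became 5 at q under 0.1 (Foxa3 and Sox17 added), 4 by the authors' own mark, and 3 at q under 0.01 or with q recomputed from the deposited p. At 5 FPKM or more, 0 were left, and 2 (Foxp2 and Sox5) at 1 FPKM or more. Alternatives chosen after seeing the data left 0 above the 99th percentile of chemoreceptor rows and 2 without members that share over 5% of their 32-base words. The 1 member called toward incisor, Sox9, kept its call under each of these settings except q under 0.01, where 0 were left. Over all 18770 tested rows, 2730 were called toward molar and 1184 toward incisor at q under 0.1 in the authors' deposited table. At q under 0.01 the counts were 1651 and 426, and with q recomputed 2228 and 804. Of 7913 tested rows at 5 FPKM or more, 1719 were called toward molar and 714 toward incisor. The members' median log2 of 0.10 was 0.16 with a pseudocount of 0.1 and 0.038 with a pseudocount of 5. It was -0.56 at a floor of 5 FPKM (all rows 0.19) and 0.19 over every tested member with no floor (all rows 0.21). Centring on the median of 0.14 over all rows past the 1 FPKM floor gave -0.045. Equal FPKM totals gave -0.25 (all rows -0.35). A floor of 5 FPKM left 9 members, and a floor of 0.5 FPKM 39. The molar FPKM total exceeds the incisor total by 0.60 on the log2 scale. With equal totals, 5 of 25 named members with a finite log2 changed direction (Foxf1, Sox15, Sox2, Tbx3 and Tbx6). A different centring, on the median log2 of 0.22 of rows above 0 in both tissues, changed 1 (Tbx3). None of these members was called. Causes were not tested. FPKM gives no depth, so no counting error could be set on any value.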
